A study of Mus musculus with 6 samples.

Results

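The clone transcripts described here are the targets of array probes that are listed under a GenBank record of a cDNA clone, with the prefix AK or BC, and not under a RefSeq transcript. The rule uses the identifier that the array files give each probe and no measured value. It was set with earlier results of these data known. Of the 56605 probes that are not controls, 4986 met the rule, for 4875 clone records. The AK records accounted for 4639 of these probes and the BC records for 347. For comparison, 30392 probes are listed under a RefSeq NM_ record, that is, a curated messenger RNA.

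RNA came from quadriceps muscle of 3 Exercise and 3 Sedentary mice, all of them AR97Q males that were 9 weeks old. The AR97Q line is transgenic, is kept on a C57BL/6J background and models SBMA, a hereditary disease of motor neurons and muscle, and the mice of both groups carried its transgene. The Exercise mice ran on a forced wheel at 5 m/min from 5 to 9 weeks of age, whereas the Sedentary mice did not, and no wild-type arrays were analysed here. Each RNA was hybridized to 1 Agilent array with a single dye, so the values are fluorescence intensities.

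Large-scale cDNA projects copied messenger RNA from many tissues into cloned DNA and sequenced the inserts in full. AK records came mainly from the RIKEN mouse collection and BC records from the Mammalian Gene Collection. Some of the AK clones have no long reading frame and represent long noncoding RNAs, retained introns or internally primed fragments, while others overlap genes that are well known. A clone record therefore documents that a transcript was copied at least once in some tissue, and not that it is made in muscle. The scanner files hold neither the probe sequences nor a description of the clones, so the position of a probe relative to known genes was not examined, and cross-hybridization with a related transcript cannot be told apart from the clone's own signal. Only 8 of the 4875 records, with 9 probes, could be paired with a gene of the RefSeq table, 6 by symbol and 2 by synonym.

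The 6 arrays lay on 1 slide, with the Exercise arrays and Sedentary 1 in 1 strip of it and Sedentary 2 and 3 in the other. The processed signal at the 75th percentile ran from 251 to 257 in the Exercise arrays and from 310 to 384 in the Sedentary arrays, without overlap. All values below are log2 signals relative to that percentile of their own array. On this scale the dimmest probe well above background lay at -4.48 to -4.44 on the Exercise arrays and at -4.84 to -4.81 on the Sedentary arrays, so that dimmer signals could be seen on the Sedentary arrays. All 9 skeletal muscle markers were well above background on 6 arrays and ranked at or above the 98.1th percentile of probes. At an adjusted p under 0.05, 5 of these 9 markers were higher with exercise, and their summed level was 12.02 to 12.22 in the Exercise group and 11.08 to 11.56 in the Sedentary group. By the same rule 1 adipocyte marker of 7 (Lep) was higher, the other 6 had changes below 0 that did not pass, and the median of this list was -0.78. Among 5 smooth muscle markers 1 was higher (Acta2) and 1 lower (Myh11). Cnn1 (-1.67) and Tagln (-0.52) were lower without passing, and Smtn differed by 0.08. In limma's test 4 of the 5 had an unadjusted p under 0.05, and the median of this list was -0.52. In limma's test 0 of 6 macrophage, 0 of 4 red blood cell, 0 of 5 endothelial and 0 of 5 fibroblast markers passed, and 0, 0, 1 and 0 of them had an unadjusted p under 0.05. In bulk muscle, fewer cells of a type and less RNA per cell cannot be told apart.

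Most clone transcripts were not detected in the quadriceps. Of the 4986 clone probes, 1843 (37.0%) were well above background on at least 3 arrays, against 71.7% of the NM_ probes and 57.8% of all probes. RefSeq noncoding (NR_) probes were detected about as often as the clones, at 36.7%, and probes for genomic regions without a gene name at 44.4%. Probes listed under an Ensembl transcript (ENSMUST) were detected at 49.5%. On every array 2604 clone probes (52.2%) stayed under this limit, against 22.4% of the NM_ probes. Detection on all 6 arrays was found for 1426 (28.6%), against 67.0% of the NM_ probes.

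BC records were detected more often than AK records, at 49.6% of 347 and 36.0% of 4639 probes. Among AK records the share differed with the number of the record. It was 33.9% of the 3577 probes whose record starts with AK0 and 42.6% of the 1009 with AK1. The prefix of the probe name also went with detection. The share was lowest in clone probes named A_52, at 25.2% of 975, and highest in those named A_65, at 62.4% of 173. In NM_ probes with these 2 prefixes the shares were 71.3 and 87.7%.

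By array, 35.0, 32.4 and 34.1% of the clone probes were well above background in Exercise 1 to 3, and 36.9, 39.5 and 40.4% in Sedentary 1 to 3. The group means were 33.8% ± 1.34 (SD, n = 3) and 38.9% ± 1.80 (SD, n = 3), and every Sedentary array lay above every Exercise array. The NM_ probes ran from 69.3 to 71.7% in the Exercise group and from 71.8 to 73.1% in the Sedentary group. For the BC probes the groups overlapped, since Exercise 1 (48.4%) was above Sedentary 1 (47.3%). These shares moved with the overall signal of the arrays given above, and the part of that signal in the difference was not tested.

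**Figure D1:**
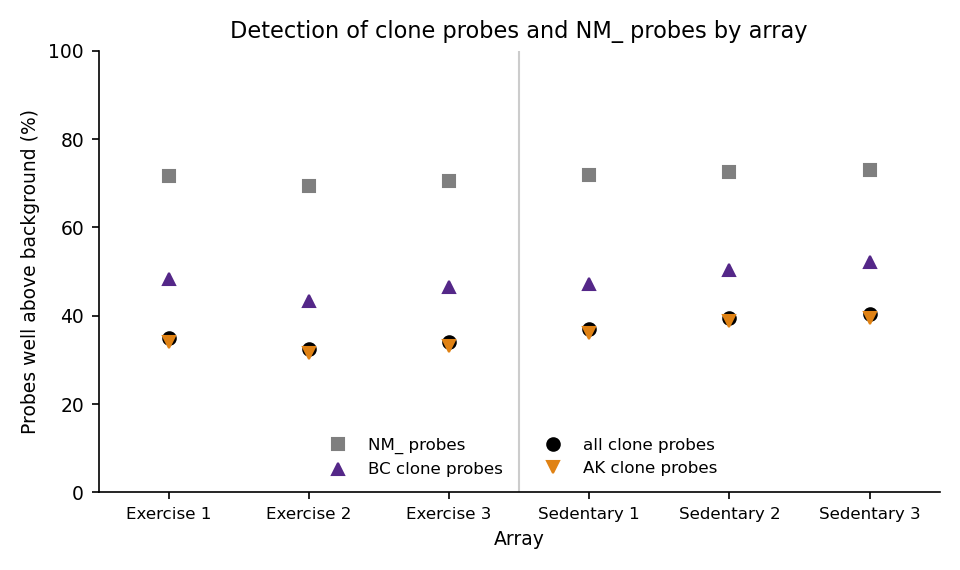
The share of probes well above background (y axis, %) is plotted for each of the 6 arrays (x axis), with separate symbols for all clone probes, AK probes, BC probes and NM_ probes. All clone probes lie between 32.4 and 40.4%, under the NM_ probes, which lie between 69.3 and 73.1% on the same arrays.

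Detection patterns that split cleanly by group were rare and lay mostly on the Sedentary side. There were 71 clone probes (1.42%) seen on all 3 Sedentary arrays and on 0 Exercise arrays, against 0.777% of all probes and 0.497% of the NM_ probes. The pattern was also found in 138 of 9009 ENSMUST probes, 21 of 2883 NR_ probes and 27 of 4450 probes for unnamed genomic regions. Dimmer signals could be seen on the Sedentary arrays, as given above, and the part of this in the pattern was not tested. The opposite pattern was found for 3 clone probes (0.060%), AK016735, AK047556 and AK083419, against 0.087% of all probes and 0.086% of the NM_ probes.

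Clone transcripts that were detected were dim. The median level of the 1842 tested clone probes was -2.70, and that of the 21794 tested NM_ probes was 0.21. Probes differ in how strongly they bind, so this compares distributions and not single transcripts. On the single arrays the clone median minus the NM_ median was -2.96, -3.03 and -2.90 in Exercise 1 to 3 and -2.82, -2.82 and -2.78 in Sedentary 1 to 3. The mean difference was -2.89 ± 0.096 (SD, n = 6), so the gap was far larger than its spread between arrays. It was widest on the 3 Exercise arrays, which did not overlap the Sedentary arrays. BC probes were brighter than AK probes, with medians of -1.62 and -2.76.

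The distribution had a long bright tail. Levels ran from -5.48 to 9.87, and 17.6% of the tested clone probes lay under -4 and another 46.0% between -4 and -2. Only 2.71% (50 probes) lay over 4, against 11.1% of the NM_ probes. BC probes formed a small separate group at the bright end, at levels from 7 to 9.5.

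**Figure D2:**
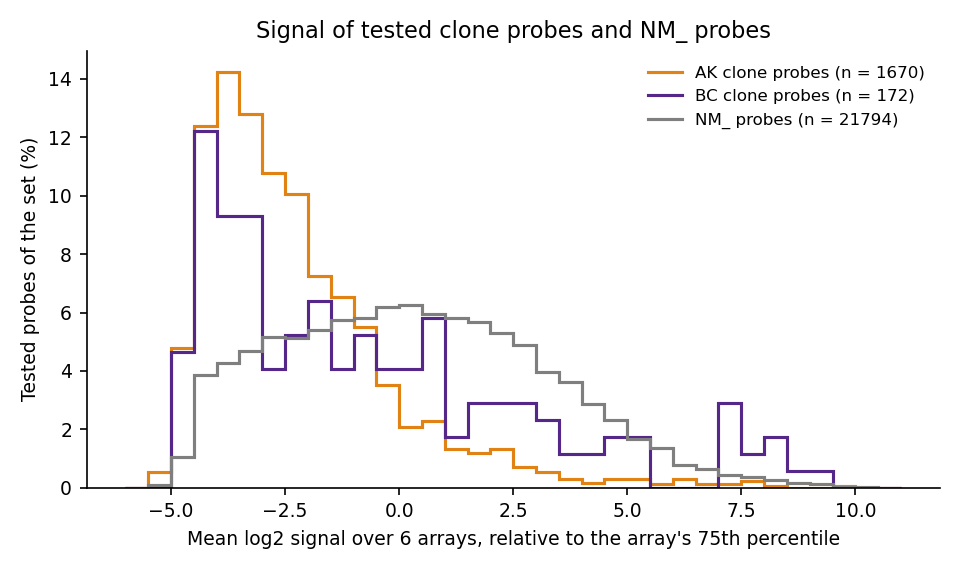
The percentage of tested probes of each set (y axis) is plotted by mean log2 signal over 6 arrays relative to each array's 75th percentile (x axis, steps of 0.5), for AK, BC and NM_ probes. The AK probes pile up at the dim end around a median of -2.76, the NM_ probes centre on 0.21, and the BC probes have a few members above 7.

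The 6 brightest clone probes ranked at or above the 99.4th percentile of all tested probes. AK140265 measured 10.09, 10.07 and 10.11 in Exercise 1 to 3 and 9.75, 9.60 and 9.61 in Sedentary 1 to 3. It was higher in every Exercise array, by 0.44 ± 0.084 (SE, adjusted p = 0.0277), a 1.35-fold difference that stayed under the minimum of 1 log2 unit used for a call. BC039973 measured 9.48, 9.39 and 9.39 against 9.08, 8.94 and 8.83, a difference of 0.47 ± 0.097 (adjusted p = 0.0311). AK203298 measured 8.69, 8.56 and 8.70 against 8.38, 7.99 and 8.05, a difference of 0.51 ± 0.13 (adjusted p = 0.0447). Those 3 passed the adjusted p alone. The other 3 did not, with differences of 0.29 (BC013252, adjusted p = 0.0894), 0.22 (BC025884, adjusted p = 0.151) and 0.17 (BC087961, adjusted p = 0.207). In all 6 the Exercise arrays lay above the Sedentary arrays on this scale, and so did the summed level of the skeletal muscle markers. The direction depended on the scaling. After quantile normalization AK203298 differed by 0.08 (adjusted p = 0.632), and the other 5 were lower in the Exercise group without passing, by -0.27 to -0.08, with adjusted p of 0.170 for AK140265 and 0.486 for BC039973. Without scaling the same 5 were below 0 as well.

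Replicates of the clone probes were less precise than those of the NM_ probes, with a median SD within a group of 0.232 against 0.147. At like signal the medians lay closer together at the dim end. The median SD was 0.421 for clone probes and 0.426 for NM_ probes under -4, 0.256 and 0.250 between -4 and -2, and 0.171 and 0.160 between -2 and 0. Clone probes had the larger SD between 0 and 2 (0.141 and 0.122) and between 2 and 4 (0.131 and 0.103), and the smaller one over 4 (0.080 for 50 probes, against 0.097).

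The question of the array comparison was how early exercise changed gene expression in the muscle of AR97Q mice. A call required an adjusted p under 0.05 in limma's test over all 32726 probes tested and a log2 fold change of at least 1 in size. Of the 1842 clone probes, 26 (1.41%) were raised in the Exercise group, against 1.57% of all probes tested and 1.36% of the NM_ probes. Lowered probes numbered 42 (2.28%), against 0.987% of all probes and 0.674% of the NM_ probes. Raised clones were thus about as frequent as raised probes in general, and lowered clones were more frequent. In ENSMUST probes 1.48% were raised and 1.84% lowered, in NR_ probes 3.50 and 1.61%, and in unnamed genomic regions 2.13 and 0.710%. Lowered probes were thus also more frequent in ENSMUST and NR_ probes than in all probes. Of the called clone probes 61.8% were lowered, against 38.6% of all called probes. In ENSMUST probes this share was 55.4%, in NR_ probes 31.5% and in unnamed genomic regions 25%. When only the adjusted p was required, 135 clone probes (7.33%) were higher, against 10.5% of all probes, and 214 (11.6%) were lower, against 5.65%. The groups did not overlap, with Exercise above, in 305 clone probes (16.6%, against 24.0% of all probes) and, with Exercise below, in 449 (24.4%, against 17.8%).

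The surplus of lowered clones depended in part on the dimmest probes. Of the 42 lowered probes, 21 were well above background on 0 of the 3 Exercise arrays and entered the test only through the Sedentary arrays. Likewise 3 of the 26 raised probes entered only through the Exercise arrays. When a probe also had to be well above background on at least 1 array of each group, a requirement chosen after the data were seen, 23 clone probes were raised and 21 lowered, or 1.30 and 1.19% of 1768, and all 44 had been called before. Under the same requirement 1.45% of all probes were raised and 0.645% lowered. With all 6 arrays required, 19 were raised and 16 lowered, or 1.33 and 1.12% of 1425, against 1.53 and 0.642% of all probes. The split of calls also moved with the scaling, for clones and for all probes. Relative to the array median 35 clone probes were raised and 31 lowered (47.0% lowered, against 26.8% of all called probes), and without scaling 6 and 311 (98.1%, against 94.3%). The counts were 1 and 4 after normexp background correction (80.0%, against 23.1%), 63 and 63 without a filter (50%, against 33.0%), and 14 and 82 in the authors' table (85.4%, against 69.1%). In all these settings the lowered share was higher for clones than for all probes.

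With 1 array fewer, nearly all calls were lost, for clones as for all probes. Without any one of Exercise 1, 2 or 3 or Sedentary 2 or 3, 0 clone probes were raised and at most 1 lowered in limma's test, and over all 32726 probes 0 were raised and at most 1 lowered, although 549 to 687 clone probes still had an unadjusted p under 0.05. In limma's test with all 6 arrays, 718 of the 1842 clone probes and 11671 of all 32726 probes had such a p. For the other fits the counts of such p over all probes are not given. Without Sedentary 1, the array that shares its strip with the Exercise arrays, 44 clone probes were raised and 59 lowered. These were 2.39 and 3.20% of the clone probes, against 2.63 and 1.79% of all probes. With the strip as a block 0 clone probes were raised and 2 lowered, against 0 and 3 of all 32726 probes. In that fit 408 clone probes had an unadjusted p under 0.05. Against Sedentary 1 alone, within the strip, 0 passed, and 357 had an unadjusted p under 0.05. In that comparison 10 of the 26 raised and 29 of the 42 lowered probes still differed by at least 1. In 22 of the 26 raised probes and 24 of the 42 lowered probes Sedentary 1 was the Sedentary array nearest to the Exercise mean. For all called probes these counts are not given, so they cannot be read as particular to the clones.

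**Figure D3:**
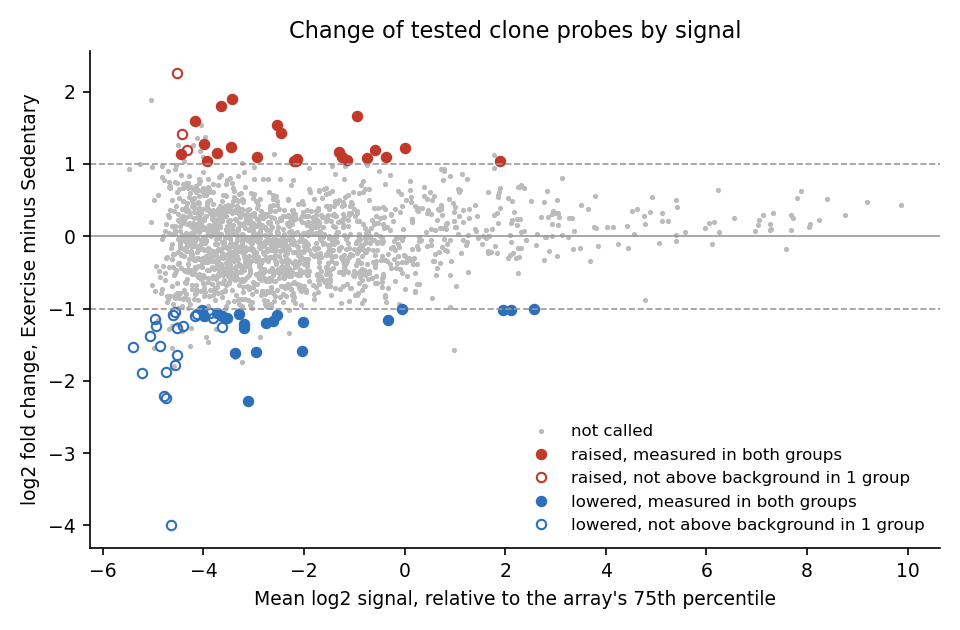
Each of the 1842 tested clone probes is plotted by its mean log2 signal relative to the array's 75th percentile (x axis) and its log2 fold change, Exercise minus Sedentary (y axis). Filled red and blue circles are the 23 raised and 21 lowered probes measured in both groups, open circles the 3 raised and 21 lowered probes not above background in 1 group, and dashed lines mark a change of 1 in either direction.

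As a set, the clone probes shifted little. Their median log2 fold change was -0.088, with 57.2% below 0, against 0.014 for NM_ probes and 0.018 for all probes. The AK probes had a median of -0.098 and the BC probes of 0.081, whereas ENSMUST probes stood at -0.027, NR_ probes at 0.075 and unnamed genomic regions at 0.190. The sign for the clones was not stable, since their median was 0.0002 after scaling to the array median, 0.148 after normexp background correction and 0.252 without a filter on dim probes. Relative to all probes, whose median was 0.107, 0.097 and 0.160 in these settings, the clone median was lower by 0.107 in the first, as it was on the scale used here, and higher by 0.051 and 0.092 in the other two.

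The share of lowered clone probes was highest where the signal was weakest, mostly through probes that were not above background in the Exercise group. Under a level of -4, 5.85% of 325 clone probes were lowered, against 3.10% of the NM_ probes at that level. Of these 19 clone probes 18 were above background on 0 Exercise arrays, as were 31 of the 34 NM_ probes, so 1 and 3 remain that were measured in both groups. Between -4 and -2, 2.12% of 848 clone probes were lowered, against 1.45%, and 15 of these 18 clone probes were measured in both groups. Between -2 and 0 the shares were 0.482% of 415 and 0.535%. The raised share changed less with signal, with 1.54% under -4, 1.42% between -4 and -2, 1.69% between -2 and 0 and 1.43% between 0 and 2. None of the 64 clone probes between 2 and 4 and of the 50 over 4 was raised, whereas 1.37% of the NM_ probes between 2 and 4 and 2.53% of those over 4 were. By the adjusted p alone, 9 of these 64 (14.1%) and 13 of these 50 (26.0%) clone probes were higher in the Exercise group, against 13.9 and 28.6% of the NM_ probes.

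**Figure D4:**
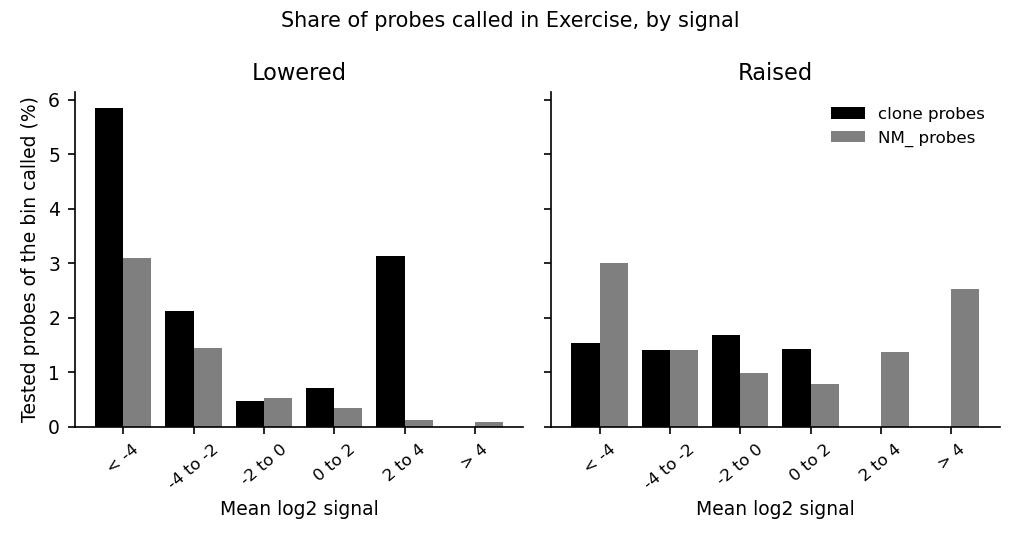
The share of tested probes called lowered (left) or raised (right) in the Exercise group (y axis, %) is shown by mean log2 signal relative to the array's 75th percentile (x axis) for clone probes (black) and NM_ probes (grey). The highest bars for lowered clone probes, 5.85% and 3.13%, stand at the dim end and at 2 to 4, where they stand for 19 of 325 probes, 18 of them above background on 0 Exercise arrays, and for 2 of 64 probes.

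Among lowered clones measured in both groups, AK050026 changed most. It measured -4.18, -4.09 and -4.49 in Exercise 1 to 3 and -2.88, -1.69 and -1.35 in Sedentary 1 to 3, a fall of 4.86-fold (log2 fold change -2.28 ± 0.39, SE, adjusted p = 0.0246). Only 1 Exercise array showed it above background, so its Exercise level sits near the limit of the array. Its log2 fold change was -0.59 after normexp background correction and -1.37 against Sedentary 1 alone. AK047630, also above background on 1 Exercise array, measured -4.58, -3.43 and -4.52 against -2.77, -2.21 and -2.69 (-1.62 ± 0.34, adjusted p = 0.0315). Groups that do not overlap were a condition for a probe to be named here. The array that detected AK047630 was the highest of the Exercise group.

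The next 5 were above background on all 6 arrays. AK053902 measured -3.63, -4.05 and -3.56 in the Exercise group and -2.49, -2.30 and -1.66 in the Sedentary group (-1.60 ± 0.25, adjusted p = 0.0240). AK046594 measured -2.99, -2.72 and -2.79 against -1.72, -0.37 and -1.66 (-1.59 ± 0.37, adjusted p = 0.0379). Here Sedentary 2 stood far above the other Sedentary arrays. The remaining 3 had tight Sedentary values, with SDs of 0.114 or less. AK084107 measured -4.09, -3.65 and -3.78 against -2.52, -2.69 and -2.48 (-1.27 ± 0.14). AK143985 measured -3.85, -3.53 and -4.05 against -2.53, -2.65 and -2.59 (-1.22 ± 0.14). AK041609 measured -3.35, -3.08 and -3.63 against -2.19, -2.11 and -2.17 (-1.20 ± 0.15). In these 3 each adjusted p was 0.0240, and the difference from Sedentary 1 alone was -1.31, -1.28 and -1.16.

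Raised clones measured in both groups were led by AK020178. It measured -2.31, -2.45 and -2.70 in Exercise 1 to 3 and -3.57, -4.89 and -4.68 in Sedentary 1 to 3 (1.89 ± 0.35, adjusted p = 0.0261), a 3.71-fold rise. AK041759 measured -2.87, -3.14 and -2.27 against -4.02, -5.04 and -4.61 (1.80 ± 0.32, adjusted p = 0.0253). Each was above background on all 3 Exercise arrays and on 2 Sedentary arrays. AK084136, above background on 1 Sedentary array, measured -3.63, -3.05 and -3.43 against -4.16, -5.33 and -5.43 (1.60 ± 0.36, adjusted p = 0.0362). In these 3 probes Sedentary 1 was the highest of its group, and the rises over Sedentary 1 alone were 1.09, 1.26 and 0.78.

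BC023105 was the brightest of the 7 and the only called clone that could be paired with a gene name. RefSeq lists it as a pseudogene, that is, a copy of a gene that is not annotated as making a protein. It measured -0.05, -0.16 and -0.12 in the Exercise group and -1.17, -1.98 and -2.17 in the Sedentary group, a 3.17-fold rise (1.66 ± 0.26, adjusted p = 0.0240). The SD was 0.056 among the Exercise values and 0.53 among the Sedentary values. Over Sedentary 1 alone, the highest of its group, the rise was 1.06. A pseudogene can share sequence with its parent gene, so the signal may include related transcripts.

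The other 3 were AK042285, AK153785 and AK137328. AK042285 measured -1.51, -1.99 and -1.77 against -2.69, -3.14 and -4.07 (1.55 ± 0.35, adjusted p = 0.0361). AK153785 measured -1.51, -1.89 and -1.85 against -2.83, -3.20 and -3.48 (1.42 ± 0.19, adjusted p = 0.0240). AK137328 measured -3.77, -3.26 and -3.01 against -4.63, -4.70 and -4.56 (1.28 ± 0.20, adjusted p = 0.0240). Over Sedentary 1 alone these 3 rose by 0.93, 1.08 and 1.28. The Sedentary values of AK137328 had an SD of 0.068 and lay close to the detection limit of those arrays, where 2 of 3 were above background. None of the 14 clone transcripts in these paragraphs other than BC023105 has a gene name in the tables used here. With each array left out in turn, the log2 fold changes of the 7 raised probes ran from 1.11 to 2.30 and those of the 7 lowered probes from -2.74 to -1.06. After normexp background correction they were 0.54 to 1.21 and -0.79 to -0.23, and of the 14 only BC023105 still met both thresholds, while 12 passed the adjusted p.

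**Figure D5:**
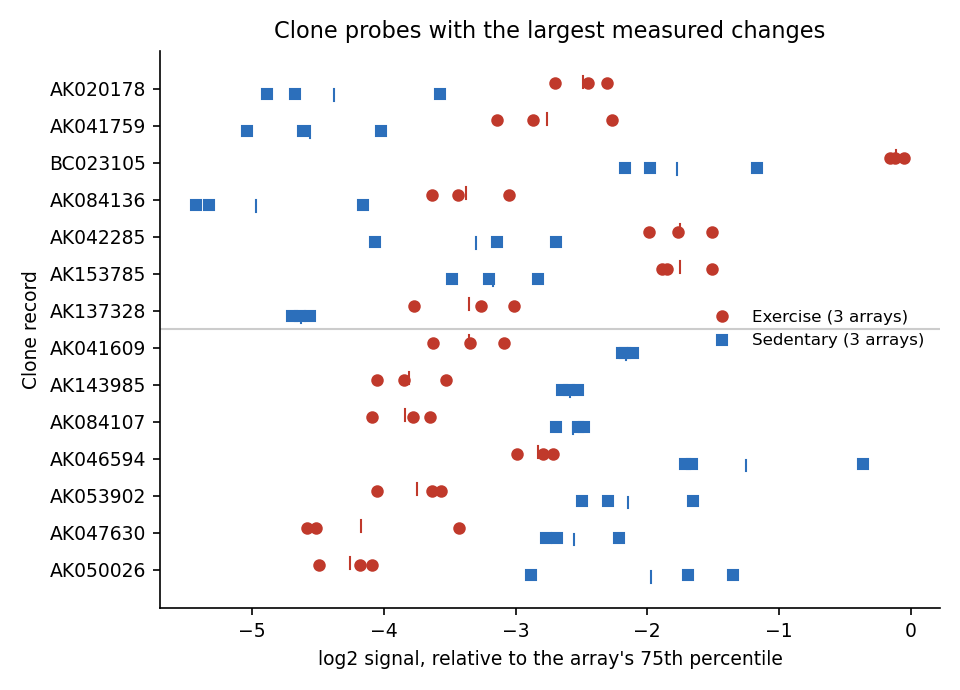
The log2 signal relative to the array's 75th percentile (x axis) is plotted for the 7 raised (top) and 7 lowered (bottom) clone probes with the largest measured changes (y axis), with red circles for the 3 Exercise arrays, blue squares for the 3 Sedentary arrays and short lines for the group means. The probes were chosen from those whose groups do not overlap, and BC023105 is the brightest, with Exercise values from -0.16 to -0.05.

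For clones not above background in 1 group, values under the array's dimmest probe above background were set to that probe's signal. Values above that signal were used as measured. That signal is a limit of the array and not of the probe, since AK011347 was not above background at -4.16. The fold is therefore not a strict lower limit. Each of these clones passed the filter only through the group where it was high. Its adjusted p tests the measured difference, background readings included, and not this fold, so it is not given beside the fold. AK083337 measured -6.64, -6.63 and -6.64 in Exercise 1 to 3, values that are background, and -4.35, -1.78 and -1.79 in Sedentary 1 to 3. Computed in this way, it was 3.53-fold lower in the Exercise group. Sedentary 1 was far below the other Sedentary arrays for this probe. AK011347 measured -4.27, -4.16 and -4.33 against -3.43, -3.00 and -2.59, 2.38-fold lower. Its Exercise values all lay above that signal, so this is the measured fold and not a lower limit. AK012274 measured -4.21, -4.44 and -4.46 against -3.59, -3.30 and -2.81, 2.19-fold lower, close to its measured fold of 2.20. After normexp background correction the log2 differences of AK011347 and AK012274 were -0.085 (adjusted p = 0.4998) and -0.030 (adjusted p = 0.781), and that of AK083337 was -0.69 (adjusted p = 0.0424). Of the 21 lowered clones of this kind, 4 had a fold of at least 2 when computed in this way. The fourth was AK048355 (2.01-fold lower), which was named after its values were seen. For 1 of the 21 no fold can be given.

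The 3 raised clones of this kind were all above background on 3 Exercise and 0 Sedentary arrays. AK016735 measured -3.61, -3.39 and -3.22 against -4.93, -5.48 and -6.57 and was 2.68-fold higher, computed in the same way. AK047556 measured -3.97, -3.81 and -3.42 against -5.00, -5.01 and -4.76, 2.10-fold higher. AK083419 measured -3.70, -3.94 and -3.49 against -4.65, -4.85 and -5.87, 2.09-fold higher. The -4.76 of AK047556 and the -4.65 of AK083419 lay above the dimmest detectable signal and were used as measured. The dimmest detectable signal was lower on the Sedentary arrays, as given above.

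Among BC clones 4 were raised and 2 lowered, or 2.33 and 1.16% of 172, against 1.57 and 0.987% of all probes, and besides BC023105 they are named here after their values were seen. BC053974 measured 0.64, 0.48 and 0.72 in the Exercise group and -0.11, -0.80 and -0.91 in the Sedentary group (1.22 ± 0.22, adjusted p = 0.0256). BC152974 (1.05 ± 0.27, adjusted p = 0.0474) and BC087921 (1.03 ± 0.18, adjusted p = 0.0253) were raised by less. BC030470 was lowered, at -2.94, -3.36 and -3.33 against -2.06, -1.93 and -2.12 (-1.17 ± 0.14, adjusted p = 0.0240). BC050212 was above background on 0 Exercise arrays and was 1.72-fold lower, computed with the detection limit as above.

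A few lowered clones were bright enough to be measured with small error, and they too were singled out after their values were seen. AK012053 measured 1.98, 2.08 and 2.16 in the Exercise group and 3.08, 3.00 and 3.16 in the Sedentary group (a fall by 1 log2 unit, SE 0.092, adjusted p = 0.0240). AK134484 measured 1.37, 1.62 and 1.79 against 2.38, 2.51 and 2.96 (-1.02 ± 0.19, adjusted p = 0.0261). AK088963 measured 1.40, 1.44 and 1.51 against 2.27, 2.43 and 2.72 (-1.02 ± 0.13, adjusted p = 0.0240). These 3 changes lay at the fold minimum for a call.

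Of the 9 probes of clones with a gene name, 5 were tested, and 4 of the 5 were not called. Both probes of BC006965, a long noncoding RNA by RefSeq, were dim, with log2 fold changes of 0.69 ± 0.43 (adjusted p = 0.297) and 0.49 ± 0.19 (adjusted p = 0.128). BC024386, also listed as a long noncoding RNA, differed by 0.24 ± 0.20 (adjusted p = 0.406). The NR_ probe of BC006965 was above background on 0 arrays, and that of BC024386 on 1 Exercise and 0 Sedentary arrays. BC049987, of the same class, differed by 0.48 ± 0.73 (adjusted p = 0.665), with Sedentary values of -4.09, -4.88 and -1.98 that spread more widely than the difference. The clone of Apobec3, a cytidine deaminase that restricts retroviruses, was above background on 0 arrays, whereas 1 of 3 NM_ probes of the same gene was measured on all 6 at 0.95 to 1.40. The other 2 NM_ probes were dim, above background on 5 and 2 arrays.

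Several probes on 1 record gave a check on the clones from within. Of 110 records with more than 1 clone probe, 58 had no detected probe, 30 had 1 and 21 had 2 tested probes, and in AK018074 1 of 2 detected probes had a missing value. The log2 fold changes of these 2 probes had the same sign in 15 of the 21 records, and they differed by a median of 0.201, whereas the levels differed by a median of 0.994 and at most 4.77. The widest disagreement was AK028130, where 1 probe gave 1.35 (adjusted p = 0.0988) and the other -0.05 (adjusted p = 0.945), both near background. AK076976 had 3 probes, of which 1 was detected (0.26 ± 0.26, adjusted p = 0.504), and both probes of AK002748 stayed at background on every array. In AK004585 both probes were detected and differed by 0.44 ± 0.15 (adjusted p = 0.0960) and 0.58 ± 0.18 (adjusted p = 0.0713).

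Finally, 4 clone probes were printed on 10 spots of each array, which measures the error of a spot. The SD between spots of 1 array was 0.034 to 0.163 on the log2 scale. AK133410, the dimmest of the 4 at a mean level of 2.83, was higher in the Exercise group by 0.63 ± 0.15 (adjusted p = 0.0386), and BC024895 by 0.50 ± 0.10 (adjusted p = 0.0298). BC094409 (0.17 ± 0.10, adjusted p = 0.281) and BC024395 (0.16 ± 0.10, adjusted p = 0.313) did not pass. The SEs of these differences, 0.101 to 0.146, are of the size of the SD of a single spot or larger, although each value averages up to 10 spots.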

How the data were processed

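Per the file headers, the authors read the 1-colour Agilent arrays with Agilent Feature Extraction 12.1.0.3 and deposited a scanner file for each array. The signal used here is their processed signal, a linear intensity after background subtraction and spatial detrending by the authors. The authors also deposited a table of these intensities for the series, in which each array's processed signal was multiplied by 1 factor, and it served as an alternative. The number of arrays limits the precision.

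Control spots (3671 of 62976 per array) and outlier-flagged spots were dropped, log2 signals were averaged over the spots of a probe, and values were scaled by subtracting the 75th percentile of their array. Of the probes, 22 had a missing value on an array, 1 of them a clone probe, and were not tested. A probe counted as detected where the scanner's flag for signal well above background was set on at least 3 of the 6 arrays. The fit was made per probe and not per gene, since the members are probes of single records, with lmFit and eBayes of limma 3.58.1 (R 4.3.3), without covariates. Tests were two-sided, with Benjamini-Hochberg adjustment over all probes tested. The threshold of adjusted p under 0.05 and log2 fold change of at least 1 in size is that of the study's methods, which name iDEP. The procedure was tested on simulated data. Where a probe was above background on 0 arrays of a group, the fold was computed from the group means of log2 signals. Each dim value below the array's own detection limit (its dimmest probe with the flag) was first set to that limit. Values without the flag but above that limit were kept, so the fold is not a strict lower limit. ± after a fold change is the SE.

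Named probes were, by rule, the 7 largest rises and falls among called probes measured in both groups, and the 6 brightest. Also named were the 3 largest folds per direction that were computed with the detection limit, and called records with a gene name. The 3 records with the most probes were named too (1 with 3 probes, and the first 2 by name of the 109 with 2). The members, the rule and the marker lists (skeletal muscle, adipocyte, macrophage, red blood cell, smooth muscle, endothelial, fibroblast) were chosen with earlier results of these data known. Gene names and classes came from a RefSeq table of GRCm38.p6, used for names only. Probe and clone sequences were not analysed here, and a few values are not reported here. Alternatives covered the scaling, the background correction (normexp with an offset of 50 on median spot and background signals), the filter and 1 probe per record. They also covered the authors' table, each array left out, the replicate number and the strip as blocks, array weights, moderation and the threshold. A further alternative was an unpaired t-test, which the paper names for its animal data, whereas its array methods name iDEP.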

Additional observations from a re-analysis of the deposited data

How the results depend on the processing

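The direction of the median change and the counts of called clone probes depended on the processing more than the level or the share detected. For raised and lowered clone probes (26 and 42), no scaling gave 6 and 311, normexp 1 and 4, no filter 63 and 63, detection on all 6 arrays 19 and 16, detection on at least 1 array of each group 23 and 21, the deposited table of values gave 14 and 82, array weights 44 and 70, no fold minimum 135 and 214, the strip as a block 0 and 2, the comparison within the strip 0 and 0, and the methods' t-test 0 and 3, where 576 had an unadjusted p under 0.05. Quantile normalization, the array median, 1 probe per record and eBayes with trend and robust stayed within 1.5 times in both directions. With each array left out in turn, raised probes ranged from 0 to 44 and lowered probes from 0 to 59, the median change from -0.112 to -0.043, the level difference from NM_ probes from -2.91 to -2.86 and the share detected from 34.3 to 36.4%. With the replicate number as a block, 0 were raised and 0 lowered, for clones as for all probes. In that fit 721 clone probes had an unadjusted p under 0.05, against 718 without the block. Deviations of same-numbered arrays correlated at 0.015, 0.085 and 0.025, so the numbers were not taken to pair the mice. The median change of -0.088 became 0.00017 with the array median, -0.561 without scaling, 0.148 with normexp, 0.252 without a filter and -0.246 in the authors' table. The level difference of -2.89 became -1.91 with normexp, -4.15 without a filter, -2.57 with detection on all 6 arrays, and -3.37 or -2.65 with 1 probe per record by highest mean or largest SD. The share detected was 47.8% on at least 1 array, 28.6% on all 6 and 65.3% with the scanner's flag for positive and significant signal. The cause of these shifts was not tested. Of 504 values of named probes under alternatives, 306 kept their direction and side of the threshold, 186 kept the direction but missed the threshold, 100 of them with an array left out, and 12, all uncalled, changed sign. With quantile normalization these were AK140265 (-0.21), BC039973 (-0.082), BC013252 (-0.21), BC025884 (-0.21) and BC087961 (-0.27). Without scaling they were the same 5 (-0.037, -0.0044, -0.18, -0.25 and -0.30), 1 probe of AK004585 (-0.032) and AK076976 (-0.21). The signal over background limits what can be said of most clones, since 52.2% were under the limit on every array.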
